A study of Mus musculus with 4 samples.

Results

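The genes of repetin (Rptn), trichohyalin (Tchh) and trichohyalin-like 1 (Tchhl1) lie side by side on mouse chromosome 3, in the Epidermal Differentiation Complex (EDC). Their contacts were taken as those with at least 1 restriction fragment whose midpoint lies at 93.18 to 93.29 Mb (mm9), which is called the window here. The window holds 28 of the 712 fragments with a listed contact, of which 14 carry forward and 14 carry reverse probes. At least 1 of the 4 libraries listed 8718 window contacts of 111588 in all, and all 4 libraries listed 2094 of 23395. Both fragments lay in the window for 178 contacts, of which 70 were listed in all 4 libraries.

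Chromosome Conformation Capture Carbon Copy (5C) measures how often HindIII fragments of a locus are ligated to each other in fixed nuclei, through probe pairs that anneal across each junction. The study compared 2 libraries of primary epidermal keratinocytes with 2 of primary thymocytes, all from newborn C57BL/6 mice. Keratinocytes were plated on collagen in low calcium medium for 15 hours at 32 °C, whereas thymocytes came from freshly dissociated thymi, and both were fixed with 1% formaldehyde for 10 minutes. Thus, tissue and plating cannot be told apart between the cell types. The labels do not say which animals a library came from, so p-values measure only the spread between these libraries, and 5C holds no expression values with which to check the cell type.

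Rptn, Tchh and Tchhl1 encode S100-fused type proteins, which join an S100-like calcium-binding part to long repeats. Trichohyalin is known as a structural protein of the inner root sheath of the hair follicle, and repetin as a component of the cornified cell envelope. The genes stand between the filaggrin-type genes (Crnn, Flg2, Flg, Hrnr) on the 5′ side and S100a11 and S100a10 on the 3′ side, and all of them belong to the Topologically Associating Domain that the study numbers TAD4.

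In the mm9 annotation (GENCODE), Rptn occupies chr3:93197621-93203364 on the plus strand with 3 exons, Tchh chr3:93246252-93252999 on the plus strand with 2 exons, and Tchhl1 chr3:93272676-93275902 on the plus strand with 3 exons. Within 5 kb of the gene bodies there were 7 fragments at Rptn, 4 at Tchh and 3 at Tchhl1. Only the Tchh start site lay in a probed fragment (reverse fragment 1114, chr3:93240815-93247426). The Rptn start site was 494 bp and the Tchhl1 start site 2834 bp from the nearest probed fragment, so the values given for these 2 genes belong to their flanks and, for Rptn, to its body. The 5′ part of the Rptn region also overlaps Gm17426 on the minus strand, whose contacts cannot be told apart from those of Rptn.

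The probes that read the junctions on which the results turn are given by their genomic part, 5′ to 3′, with capitals for the bases of the HindIII site at which 2 probes are joined. Fragment 1016 is 1 of 10 probed fragments within 10 kb of enhancer E9, between Gm4858 and Crnn. Fragments 1096 and 1097 cover Rptn, 1099 its 3′ flank, 1104 the interval between Rptn and Tchh, 1114 and 1115 Tchh, 1119 and 1120 the interval between Tchh and Tchhl1, and 1122 the 3′ flank of Tchhl1.
forward 1016 at chr3:92926617-92926646, plus strand, intergenic: tcaatttcaacctggtgctctcttattAAG
reverse 1096 at chr3:93202415-93202444, minus strand, Rptn coding exon: CTTctggattggtcttggcctccttgatac
forward 1097 at chr3:93203049-93203078, plus strand, Rptn 3′ UTR: tcttatgggtaaaatatcaggaaccacAAG
reverse 1099 at chr3:93208908-93208937, minus strand, intergenic: CTTttgtgtttgctgtagtccagcttacta
reverse 1104 at chr3:93219996-93220025, minus strand, intergenic: CTTcaattatacaagatgaatcagttttag
reverse 1114 at chr3:93247397-93247426, minus strand, Tchh coding exon: CTTgagcaatcttgaaaaggaacaggagga
forward 1115 at chr3:93251980-93252009, plus strand, Tchh 3′ UTR: atgctgcaaacatcctggcaccagccaAAG
reverse 1119 at chr3:93262703-93262732, minus strand, intergenic: CTTcctttcttggaactttccgtttgttat
forward 1120 at chr3:93269813-93269842, plus strand, intergenic: tatatgttttacttggtgcttttattcAAG
reverse 1122 at chr3:93280176-93280205, minus strand, intergenic: CTTaatactacactgagtatcttgcactac

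The window was not read evenly. Keratinocyte library 1 listed 7437 window contacts, keratinocyte library 2 listed 5356, thymocyte library 1 listed 3810 and thymocyte library 2 listed 4653. These were 7.77% to 8.71% of the contacts of each library. Of the 12 window fragments with under 100 listed contacts in at least 1 library, 9 had a probe with over 45% GC. For these 9 probes, the median number of listed contacts was 286 and 91 in keratinocytes and 42 and 74 in thymocytes, with library 1 before library 2 here and in all pairs of values that follow. For the 19 probes with less GC it was 309 and 260 in keratinocytes, and 192 and 218 in thymocytes. The same held over the locus, where 74.4% of the 273 GC-rich probes had under 100 listed contacts in thymocyte library 1, against 8.24% of the 437 others. The body of Tchh was among the poorly read places: its start fragment 1114 had 179 and 37 listed contacts in keratinocytes and 69 and 57 in thymocytes, and fragment 1115, whose sequence is 60.9% GC, had 286 and 139 against 48 and 212. All 4 libraries shared only 6 contacts of fragment 1114 and 24 of fragment 1115. Fragment 1096, which covers most of Rptn, shared 2. No contact was listed for fragment 1088 in keratinocyte library 1, for fragment 1108 in keratinocyte library 2, or for fragment 1123 in either thymocyte library. Fragments 1088 and 1123 are the outermost of the window and thus gave no mean over the 4 libraries. The nearest probed fragments outside it, 1087 and 1127, had mean Z scores of 0.248 and 1.27 in keratinocytes and 0.817 and 1.10 in thymocytes, and of 0.240 and 0.295 against 0.214 and 0.423.

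**Figure D1:**
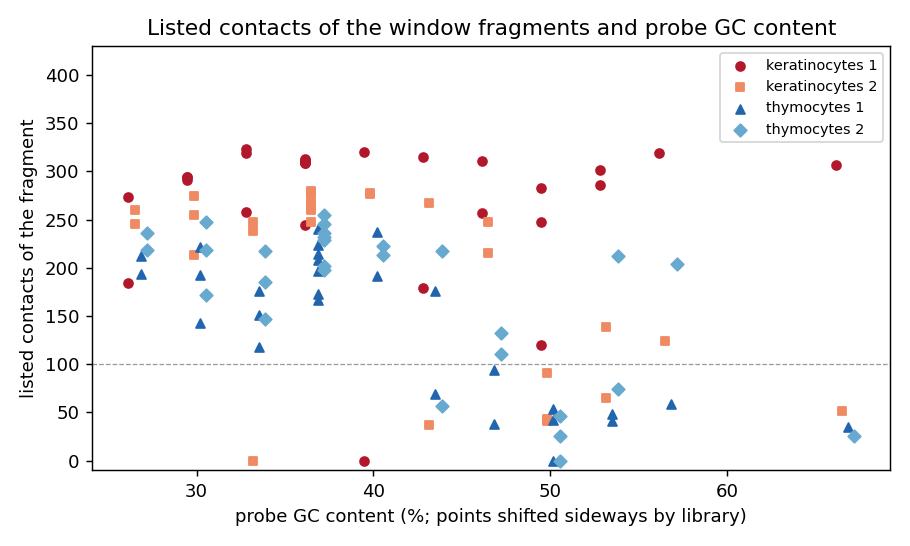
Listed contacts of each of the 28 window fragments (vertical axis) against the GC content of its probe in percent (horizontal axis), 1 point per fragment and library. Probes over 45% GC had fewer listed contacts in keratinocyte library 2 and both thymocyte libraries, and the dashed line marks 100 contacts.

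To compare contacts at different distances, the deposited Z score was used, which is the observed minus the expected 5C frequency at that distance, divided by its standard deviation. Over the 2094 contacts listed in all 4 libraries, the window averaged 0.416 and 0.412 in keratinocytes and 0.449 and 0.564 in thymocytes. Both keratinocyte libraries were lower than both thymocyte libraries, with a difference of -0.093. The same order was seen over all 23395 contacts, with means of 0.515 and 0.577 in keratinocytes and 0.613 and 0.701 in thymocytes. Their difference was -0.11, similar in size to that of the window. The median observed frequency of the window contacts was 148 and 80.0 in keratinocytes and 73.3 and 67.5 in thymocytes, beside median expected frequencies of 123, 72.1, 64.2 and 59.1 in the same order.

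Single contacts were tested with limma across all 23395 contacts, and none differed between the cell types at an adjusted p under 0.05 (0% of contacts called). Without adjustment, 96 window contacts (4.58%) had p under 0.05, against 5.11% of all contacts. The Z score was higher in both keratinocyte libraries than in both thymocyte libraries for 400 of the 2094 window contacts, or 19.1%, against 21.1% of all contacts. It was lower in both for 428, or 20.4%, against 19.1%.

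The order of the cell types was not the same at the 3 genes. Rptn fragments, over 751 contacts, had mean Z scores of 0.398 and 0.382 in keratinocytes and 0.403 and 0.642 in thymocytes. Tchh fragments, over 258 contacts, gave 0.457 and 0.459 in keratinocytes and 0.490 and 0.551 in thymocytes. Tchhl1 fragments, over 207 contacts, gave 0.584 and 0.329 in keratinocytes and 0.232 and 0.268 in thymocytes. The libraries of the 2 cell types did not overlap at any of the genes, and keratinocytes were lower at Rptn and Tchh and higher at Tchhl1. Of the Tchhl1 contacts 31.4% were higher in both keratinocyte libraries, against 18.4% at Rptn, 18.6% at Tchh and 21.1% of all contacts. The differences of the means were at most 0.21 in size, and those of Tchh and Tchhl1 changed sign under other summaries. With only the fragments that overlap the gene body, the Tchh difference was larger, at -0.53 over 107 contacts. That value came from the 24 contacts of fragment 1115, at -0.0965 and 1.39 in keratinocytes and 3.14 and 3.29 in thymocytes. The 77 contacts of fragment 1116 gave 0.244 and 0.121 against 0.108 and 0.168, so the libraries overlapped there. With 2 libraries against 2, the exact permutation test (two-sided) cannot give a p under 0.333, which is the value for each gene.

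Contacts within the window had lower Z scores in keratinocytes. The 70 contacts averaged Z scores of -0.243 and -0.179 in keratinocytes and 0.188 and 0.341 in thymocytes. Both keratinocyte libraries were thus below the frequency expected at the distance, and both thymocyte libraries were above it, with a difference of -0.48 (exact permutation test, p = 0.333, the smallest possible). On the scale of log2 observed over expected frequency, the same contacts averaged -0.40 and -0.31 in keratinocytes and 0.01 and 0.11 in thymocytes. Of the 70 contacts, 24 (34.3%) were lower in both keratinocyte libraries and 7 (10.0%) were higher, beside 19.1% and 21.1% of all contacts. The difference was -0.28 when the window fragments with under 100 listed contacts in any library were left out.

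Contacts between the 3 genes were taken from the fragments within 5 kb of them. No probed fragment overlaps Tchhl1, and none of the shared Rptn and Tchh contacts used fragments 1096, 1114 or 1115. Between gene bodies, the only shared contact was thus that of fragment 1097 in Rptn with fragment 1116 in the 3′ UTR of Tchh. Its Z scores were -0.610 and 0.338 in keratinocytes and 0.160 and 0.212 in thymocytes. The 6 contacts between Rptn and Tchh fragments averaged -0.927 and 0.0191 in keratinocytes and 0.0988 and -0.0841 in thymocytes. The 5 contacts between Rptn and Tchhl1 fragments averaged 0.0645 and 0.266 in keratinocytes and 0.447 and 0.411 in thymocytes. Only 2 contacts joined Tchh and Tchhl1 fragments. None of these contacts was called as an interaction, that is, with a q-value under 0.05 in each library of keratinocytes or of thymocytes. Within the window 2 contacts were called, both in thymocytes, and they joined the neighbouring fragments 1109 and 1110 and fragment 1115 in Tchh with fragment 1088 at the 5′ edge.

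The same tendency reached out to about 200 kb. At 20 to 50 kb, window contacts averaged -0.444 and -0.0186 in keratinocytes and 0.127 and 0.532 in thymocytes. At 50 to 100 kb they averaged -0.550 and 0.0274 in keratinocytes and 0.367 and 0.365 in thymocytes, and at 100 to 200 kb -0.305 and 0.0390 against 0.251 and 0.239. Keratinocytes were lower in both libraries in each of these classes. For contacts of the whole locus at 100 to 200 kb, the means were 0.541 and 0.576 in keratinocytes and 0.690 and 0.687 in thymocytes, a smaller gap. Under 10 kb the order over the whole locus was the opposite, with 0.631 and 0.450 in keratinocytes and 0.197 and 0.292 in thymocytes, whereas the 21 window contacts of that class averaged -0.357 and -0.399 in keratinocytes and 0.271 and 0.263 in thymocytes. At 200 to 500 kb, the class that holds the E9 contacts described next, the window averaged 0.539 and 0.403 in keratinocytes and 0.392 and 0.390 in thymocytes.

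**Figure D2:**
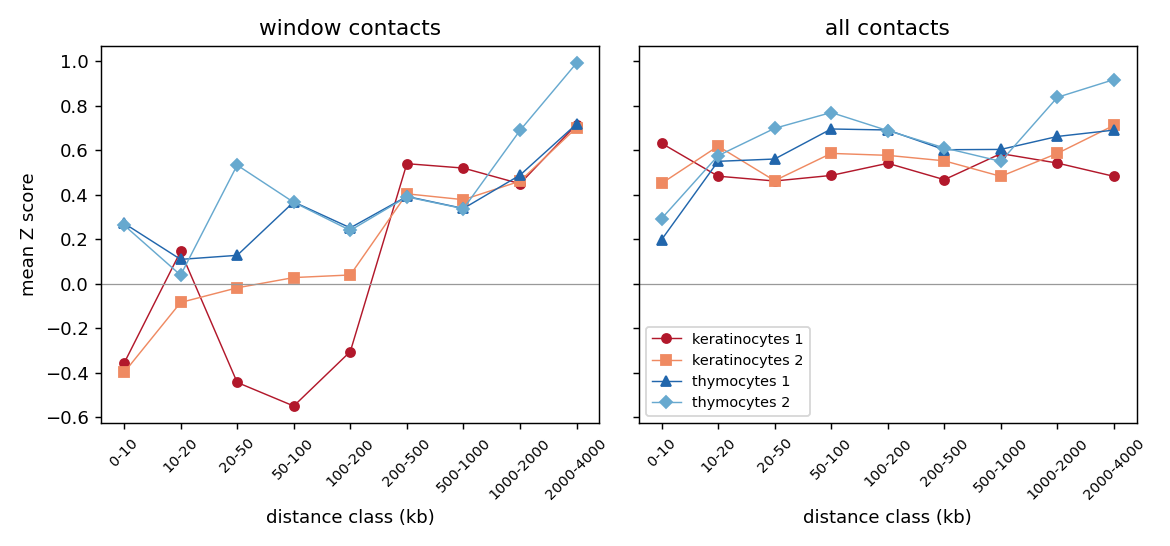
Mean Z score per library by distance between the fragments, for window contacts (left) and all contacts (right) listed in all 4 libraries. Below 200 kb the window means of both keratinocyte libraries lie under those of both thymocyte libraries, except at 10 to 20 kb, where the libraries overlap.

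The flanking gene groups were compared in the same way. Contacts among the Crnn, Flg2, Flg and Hrnr region averaged 0.159 and 0.241 in keratinocytes and 0.518 and 0.391 in thymocytes over 135 contacts. They were also lower in keratinocytes, but their mean Z scores stayed positive. On the scale of log2 observed over expected frequency, they averaged -0.17 and 0.05 in keratinocytes and 0.16 and 0.12 in thymocytes. In mean Z score, the window minus this region was -0.402 and -0.419 in keratinocytes and -0.330 and -0.0507 in thymocytes. The difference between cell types was -0.22 (exact permutation test, p = 0.333). The window was thus below the filaggrin region in every library. On the 3′ side, only 7 contacts were shared within the S100a11 and S100a10 region, with means of 1.33 and 0.444 in keratinocytes and 2.30 and 2.26 in thymocytes. The window was below this region too in every library, but here the gap was smaller in keratinocytes, by 0.91 (exact permutation test, p = 0.333).

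The enhancer with the highest window contacts in keratinocyte library 1 and library 2 was E9, 1 of 16 regions that the study called putative enhancers in keratinocytes from histone marks. Window contacts with fragments within 10 kb of E9, which span 234 to 359 kb, averaged Z scores of 2.58 and 1.38 in keratinocytes and 0.728 and 0.528 in thymocytes (86 contacts). Keratinocytes were higher in both libraries, at 1.98 ± 0.844 (SD, n = 2) against 0.628 ± 0.141 (SD, n = 2), although their own libraries differed by almost as much as the cell types did. The difference was 1.35 (exact permutation test, p = 0.333; adjusted p = 0.733 over the 11 enhancers and clusters with shared contacts). The median observed frequency was 753 in keratinocyte library 1 and 241 in library 2, beside expected medians of 401 and 206. In thymocytes it was 157 and 149, beside 147 and 138. Of the 86 contacts, 27 (31.4%) were higher in both keratinocyte libraries and 4 (4.65%) were lower.

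The other contacts at these distances did not show this difference. Window contacts with other partners at the same distances averaged 0.351 and 0.289 in keratinocytes and 0.349 and 0.308 in thymocytes (121 contacts), and all contacts of the locus at these distances averaged 0.510 and 0.603 against 0.558 and 0.579 (1820 contacts). On the 5′ side, where E9 lies, 102 of the 121 averaged 0.521 and 0.353 against 0.355 and 0.339, and the libraries overlapped. The 19 on the 3′ side were lower in keratinocytes, at -0.562 and -0.0563 against 0.319 and 0.140. E9 itself did not have raised contacts everywhere. With TAD3 it averaged 0.107 and 0.197 in keratinocytes and 0.416 and 0.681 in thymocytes, lower in both keratinocyte libraries. With the Flg2, Flg and Hrnr region, which lies nearer, it averaged 1.53 and 0.951 in keratinocytes and 0.361 and 0.525 in thymocytes, and with S100a11 and S100a10 1.23 and 1.46 against -0.0814 and -0.0658. The E9 contacts with the window were higher than those with the Flg2, Flg and Hrnr region in all 4 libraries, by 1.04 and 0.434 in keratinocytes and 0.367 and 0.00311 in thymocytes. Compared with S100a11 and S100a10, they were higher in keratinocyte library 1 and in both thymocyte libraries and lower in keratinocyte library 2, so the keratinocyte gain with E9 was not particular to the window.

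**Figure D3:**
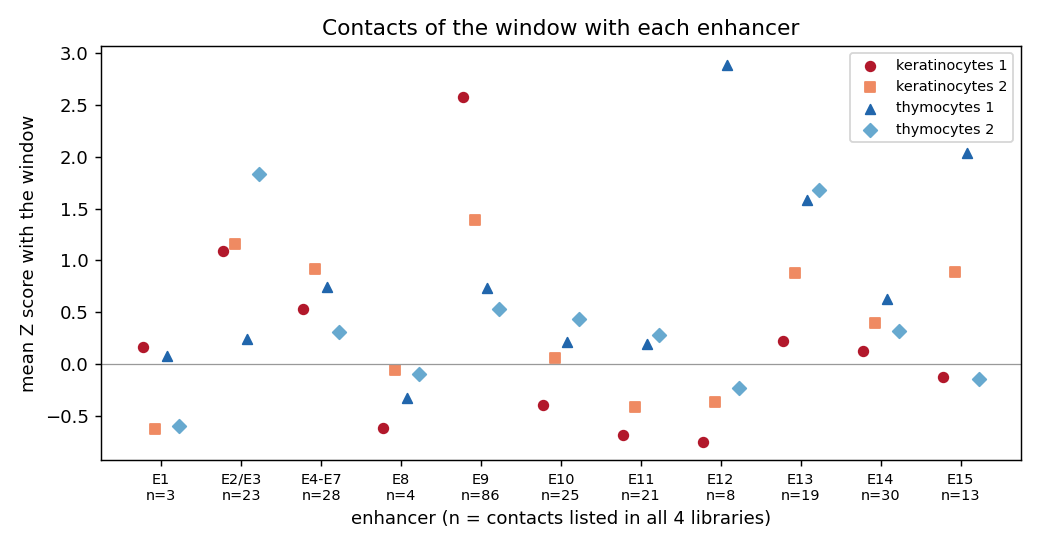
Mean Z score of window contacts with fragments within 10 kb of each enhancer or enhancer cluster, 1 point per library; n is the number of contacts listed in all 4 libraries. E9 has the highest keratinocyte means, 2.58 and 1.38, and both libraries of keratinocytes are below both of thymocytes at E10 and E11.

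The E9 contacts were unevenly spread over the window. Among the 17 window fragments with at least 4 E9 contacts, 10 had a higher mean in both keratinocyte libraries than in both thymocyte libraries. On the Rptn side the fragments differed. At fragments 1091, 1092, 1094 and 1097, in or 5′ of Rptn, keratinocyte library 2 was below 0, between -0.342 and -0.0198, whereas fragment 1090 had 3.08 and 3.00 in keratinocytes and 1.45 and 1.60 in thymocytes. Fragment 1099, at the 3′ flank of Rptn, averaged 3.69 and 2.99 with E9 in keratinocytes and 0.268 and -0.528 in thymocytes. Fragment 1104, between Rptn and Tchh, averaged 4.91 and 2.15 against 0.597 and 0.524. The Rptn body fragment 1097, by contrast, averaged 0.111 and -0.0496 against -0.573 and -0.527, near the expected frequency in keratinocytes.

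From the 3′ end of Tchh onwards, and among fragments with at least 4 E9 contacts, the highest values came from keratinocyte library 1. Fragments 1114 and 1115 in Tchh had a single shared E9 contact each, which was higher in keratinocyte library 2 than in library 1. Fragment 1116 in the 3′ UTR of Tchh averaged 3.26 in that library and 0.232 in keratinocyte library 2, beside 0.152 and 0.312 in thymocytes. Fragment 1120 between Tchh and Tchhl1 averaged 4.16 in keratinocyte library 1 and 0.0293 in library 2, beside 0.0238 and -0.0356. Keratinocyte library 2 lay close to the thymocytes there. Fragment 1122 past Tchhl1 averaged 4.36 and 1.34 in keratinocytes and 0.538 and 0.508 in thymocytes, higher in both keratinocyte libraries. By gene, the E9 means were 1.84 and 1.04 against 0.223 and 0.155 at Rptn (27 contacts), 2.79 and 0.617 against 1.07 and 0.662 at Tchh (11 contacts) and 4.26 and 0.686 against 0.281 and 0.236 at Tchhl1 (10 contacts). Only at Tchh did the libraries of the cell types overlap.

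**Figure D4:**
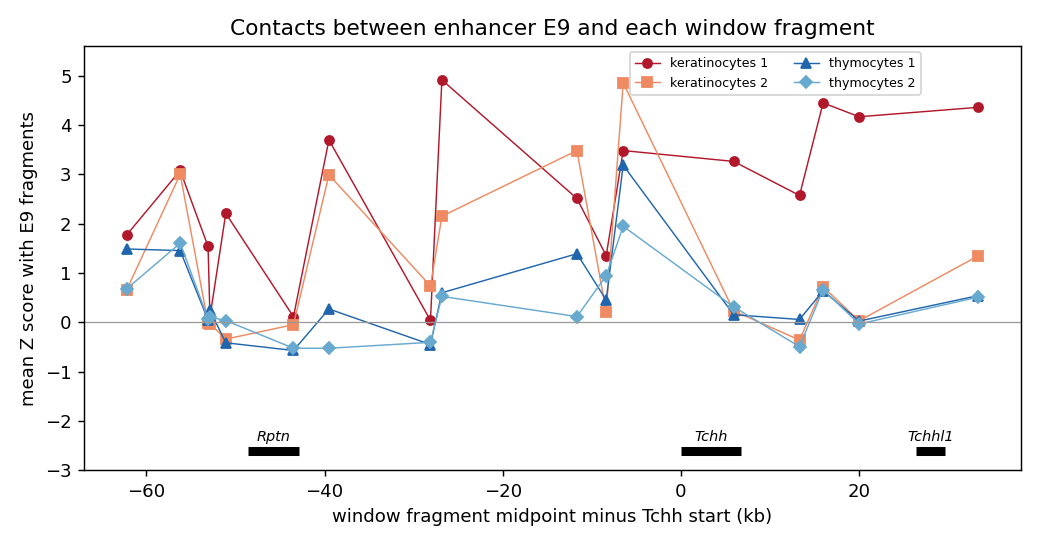
Mean Z score between the E9 fragments and each window fragment with at least 4 such contacts (vertical axis), by fragment midpoint relative to the start of Tchh in kb (horizontal axis), 1 line per library; black bars are the genes. Both keratinocyte libraries exceed both thymocyte libraries at fragments 1090, 1097, 1099, 1103, 1104, 1110, 1113, 1119, 1120 and 1122. Keratinocyte library 2 is below 0 at 1091, 1092, 1094, 1097 and 1118. From fragment 1118 onwards, 3′ of Tchh, keratinocyte library 1 is the higher of them at every fragment, and library 2 exceeds 1 only at fragment 1122.

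The call rule of the study gave 66 window contacts in keratinocytes of 4440 listed in both libraries (1.49%), against 1.99% of all contacts. In thymocytes it gave 73 of 2859 (2.55%), against 4.03%. The window was therefore below the locus as a whole in both cell types. Of the 13 keratinocyte calls between the window and the rest of TAD4, 12 were with E9, although E9 contacts were 109 of the 874 contacts listed there. In thymocytes 3 of the 16 such calls were with E9, which had 101 of the 807 listed contacts. Neither E10, which lies between Hrnr and Rptn, nor E11, at S100a10, had a called contact with the window in either cell type.

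Forward fragment 1016 (chr3:92921554-92926646) gave 5 of these 12 calls, more than any other E9 fragment. It was called in keratinocytes with fragments 1096 in Rptn, 1104 and 1109 between Rptn and Tchh, 1119 between Tchh and Tchhl1, and 1122 past Tchhl1. Its contact with fragment 1122, 352 kb away, had Z scores of 9.46 and 2.84 in keratinocytes and 0.812 and 0.820 in thymocytes. The observed frequency of this contact was 1715 and 411 in keratinocytes, where 344 and 179 were expected, and 180 and 157 in thymocytes, where 135 and 122 were expected. Its contact with fragment 1119 had Z scores of 10.4 and 2.52 against 1.14 and 0.593, and that with fragment 1104 had 5.74 and 3.45 against 0.580 and 0.774. Over the 8 window contacts of fragment 1016 listed in all 4 libraries, the mean Z score was 5.51 and 1.42 in keratinocytes and 0.567 and 0.884 in thymocytes. Its 84 contacts on the 5′ side of E9 averaged 0.563 and 0.346 against 0.605 and 0.459. Without fragment 1016, the E9 difference was 1.21.

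The other E9 calls joined fragment 1013 (chr3:92917428-92920332) to fragments 1099, 1104 and 1114, fragment 1020 to 1090 and 1107, fragment 1022 to 1109, and fragment 1021 to 1113. The contact of fragment 1013 with 1114, which holds the Tchh start site, was called in both cell types. Its Z scores were 4.81 and 5.95 in keratinocytes and 4.98 and 4.60 in thymocytes, alike in the 4 libraries. Over its 6 shared contacts, fragment 1114 averaged 2.17 and 2.44 in keratinocytes and 3.67 and 0.311 in thymocytes. The 2 remaining thymocyte calls with E9 joined fragment 1017 to 1115 in Tchh and fragment 1024 to 1113. For the first of these the Z scores were 0.0111 and 1.72 in keratinocytes and 5.89 and 3.92 in thymocytes. The mean of fragment 1115 over its 24 shared contacts, this one included, was also higher in thymocytes, at 3.14 and 3.29 against -0.0965 and 1.39.

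The enhancers nearer to the genes showed the opposite order. Window contacts with E10 averaged -0.399 and 0.0524 in keratinocytes and 0.215 and 0.433 in thymocytes (25 contacts). Those with E11 averaged -0.683 and -0.417 in keratinocytes and 0.195 and 0.278 in thymocytes (21 contacts). Keratinocytes were lower in both libraries at each of them, with differences of -0.50 and -0.79 and p = 0.333 in each exact permutation test. Window contacts of any partner were also lower in keratinocytes at 20 to 50, 50 to 100 and 100 to 200 kb, by -0.56, -0.63 and -0.38. Whether the order is particular to E10 and E11 was not tested. Of the E10 contacts 11 of 25 and of the E11 contacts 10 of 21 were lower in both keratinocyte libraries, and none was higher. The TAD1 clusters E2/E3 gave 1.09 and 1.16 against 0.242 and 1.83, and E4-E7 gave 0.533 and 0.920 against 0.747 and 0.309, and in both the libraries overlapped. The window contact with E13 in TAD6 averaged 0.220 and 0.882 in keratinocytes and 1.59 and 1.68 in thymocytes (19 contacts). At E14 (30 contacts) and E15 (13 contacts) the libraries overlapped. E12, with 8 shared contacts, averaged -0.750 and -0.372 in keratinocytes and 2.89 and -0.236 in thymocytes. Its difference of -1.89 was larger in size than that of E9, and the thymocyte libraries were far apart. E8 had 4 shared contacts, E1 had 3 and E16 had none.

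Among the other EDC gene groups, the S100a10 and S100a11 genes, which encode partners of annexins, had lower contacts with the window in keratinocytes. E11 lies at S100a10, so these contacts are not separate from those of E11. Their 44 contacts averaged -0.638 and -0.196 in keratinocytes and 0.190 and 0.245 in thymocytes, and 17 were lower in both keratinocyte libraries while none was higher. The Tdpoz genes, which the study divides between TAD4 and the gene-poor TAD5, behaved alike, at -0.562 and -0.146 against 0.916 and 0.165 (13 contacts). The Lce1 genes, which encode late cornified envelope proteins, gave 0.479 and 0.421 against 0.290 and 0.307 (137 contacts), higher in both keratinocyte libraries. With the Sprr genes, whose small proline-rich products are envelope precursors, the means were 0.254 and 0.0883 against 0.473 and 0.546 (82 contacts). The filaggrin-type genes gave 0.367 and 0.335 against 0.336 and 0.233 (98 contacts), and the libraries overlapped. For Ivl and Lor, which encode the envelope proteins involucrin and loricrin, 13 and 8 contacts were shared and the libraries overlapped too.

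Along the locus, the library means of the cell types overlapped on the 5′ side outside TAD4. With TAD1 the window averaged 0.613 and 0.772 in keratinocytes and 0.763 and 0.847 in thymocytes, with TAD2 1.18 and 0.705 against 0.485 and 0.871, and with TAD3 0.522 and 0.346 against 0.377 and 0.477. With TAD5 the window averaged -0.395 and 0.0192 against 0.691 and 0.334 (48 contacts), with TAD6 0.182 and 0.318 against 0.383 and 0.574, and with TAD7 0.135 and 0.570 against 0.670 and 0.901. The keratinocyte means were lower in both libraries on this 3′ side. Of the 48 TAD5 contacts, 20 were lower in both keratinocyte libraries and 2 were higher. The counts did not follow the means further out. In TAD6, 56 of 319 contacts were lower in both and 71 were higher, and in TAD7 17 of 109 were lower and 22 higher. Of all contacts, 19.1% were lower and 21.1% higher. None of the 7 TADs could pass the exact permutation test, since 0.333 is the smallest p that it can give here.

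**Figure D5:**
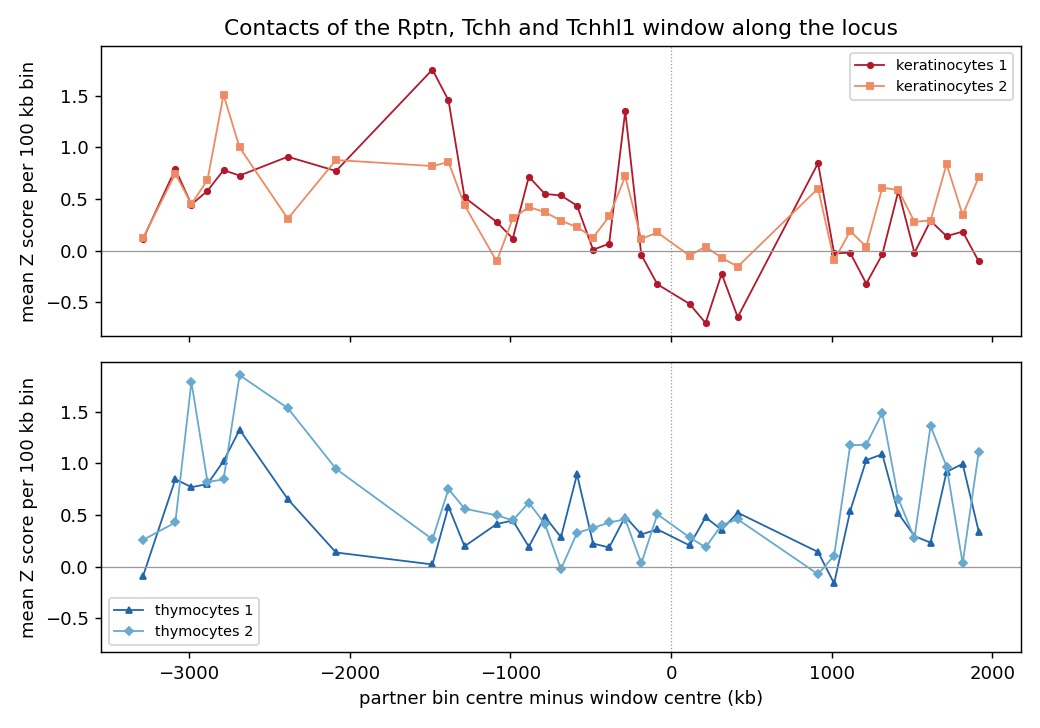
Mean Z score of window contacts per 100 kb bin of the partner, by distance of the bin from the window centre in kb, for keratinocytes (top) and thymocytes (bottom); bins with at least 20 contacts listed in all 4 libraries are drawn. The bin that holds E9, 285 kb to the 5′ side, has means of 1.35 and 0.72 in keratinocytes and 0.49 and 0.46 in thymocytes.

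The 5 contacts that were highest in both keratinocyte libraries held the E9 contact of fragment 1013 with the Tchh start, and the others were longer. In keratinocytes, forward fragment 1120 (chr3:93262733-93269842), 5′ of Tchhl1, met reverse fragment 644 (chr3:91770313-91772043), 1491 kb away in TAD2, with Z scores of 6.53 and 8.20 in keratinocytes and 2.53 and 2.29 in thymocytes. It was called in both cell types and was higher in both keratinocyte libraries. Fragment 1118 (chr3:93257437-93261744), 3′ of Tchh, met fragment 670 (chr3:91851141-91852018) with 5.11 and 4.53 against -0.238 and 0.842. Fragment 1094 (chr3:93193567-93196749), just 5′ of Rptn, met fragment 888 (chr3:92459033-92460316) near Lce1b with 4.59 and 4.65 against 1.03 and 0.717. Counted from the lower keratinocyte to the higher thymocyte library, the largest gap in favour of keratinocytes was that of fragment 1114 at the Tchh start with fragment 980 (chr3:92815150-92818139) at Crct1 and Lce1m. Its Z scores were 3.13 and 2.69 in keratinocytes and -2.05 and -1.44 in thymocytes, and its limma difference was 4.66 ± 0.77 (SE), with an unadjusted p of 0.000872 and an adjusted p of 0.77. The fifth of these gaps was that of fragment 1107 with fragment 183 near S100a9, at 2.95 and 3.46 against -0.915 and -0.330.

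The thymocyte contacts with the highest Z scores were at Tchh and Rptn too. Fragment 1115 in Tchh (chr3:93247427-93252009) met fragment 173 (chr3:90465760-90471971) near S100a7a and S100a8, 2775 kb away, with Z scores of 0.145 and -1.53 in keratinocytes and 12.9 and 14.8 in thymocytes. The same Tchh fragment met fragment 1597 near Pi4kb with 0.741 and 6.05 against 9.76 and 14.2, where keratinocyte library 2 was also high. Over all its 24 shared contacts, fragment 1115 averaged -0.0965 and 1.39 in keratinocytes and 3.14 and 3.29 in thymocytes. These contacts include those named here, and thymocyte library 1 listed only 48 contacts of the fragment. Whether the order is particular to these partners was not tested. Fragment 1099 past Rptn met fragment 1631 (chr3:94888974-94902402) near Pip5k1a with 0.390 and 0.451 against 11.3 and 9.77, and fragment 1459 near Snx27 with 1.07 and 0.349 against 7.01 and 16.02. Its contact with fragment 1541 near Pogz had 0.693 and 2.88 against 8.28 and 7.40. Fragment 1092 met fragment 246 with 4.16 and 0.258 against 9.01 and 9.98, and fragment 1090 met fragment 313 with -1.26 and -1.44 against 4.53 and 12.7. The expected frequencies of these 7 contacts were 15.7 to 72.9 in thymocytes.

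Of the contacts listed in all 4 libraries, 23 were keratinocyte-specific calls (1.10%, against 1.45% of all contacts), 42 were thymocyte-specific (2.01%, against 3.19%) and 5 were common (0.239%, against 0.581%). Among the 23, 6 were also called in 1 thymocyte library, and in 17 the libraries of the cell types did not overlap. Among the 42, 15 were also called in 1 keratinocyte library, and in 36 the libraries did not overlap. Besides the contacts of fragment 1013 with the Tchh start and of fragment 1120 with 644, the common calls were all at Rptn. Fragment 1097 at the Rptn 3′ end met fragment 59 (chr3:90138621-90138778), 3064 kb away, with Z scores of 10.4 and 6.00 in keratinocytes and 6.33 and 3.92 in thymocytes, and fragment 430 (chr3:91147316-91148344) with 4.04 and 3.38 against 4.78 and 7.28. Fragment 1090 on the 5′ side of Rptn met fragment 901 (chr3:92487334-92490428) at Lce1c and Lce1d with 3.12 and 7.72 against 9.82 and 6.01.

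The profiles of the 3 genes along the locus were only loosely alike. Over 100 kb bins of the partner, the Spearman correlation of the mean Z score was 0.26 between Rptn and Tchh (44 bins), 0.07 between Rptn and Tchhl1 (45 bins) and 0.36 between Tchh and Tchhl1 (44 bins). Among 114 other genes, those most like Rptn were Lce1c (0.40, 49 bins), Lce1a2 (0.39) and Mrpl9 (0.38). Those most like Tchh were Flg (0.39, 42 bins), Lce1m (0.33) and Gm9154 (0.32), and those most like Tchhl1 were Tdpoz3 (0.63, 36 bins), Tdpoz2 (0.43) and Kprp (0.43). The bins of 1 gene share its fragments and libraries, so these values are a description.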

How the data were processed

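The values were analysed as the authors deposited them, 1 table for each of the 4 libraries. The authors mapped reads to the 5C probes with Bowtie (genome build mm9, version not given in the sources used here) and counted forward-reverse pairs. They then removed outlying probes and contacts of very high frequency, and corrected the coverage of each probe. The deposited signal is this corrected frequency, beside the expected frequency and its standard deviation from Loess smoothing. The deposited Z score is their standardised difference, which was recomputed for every contact and matched to rounding. The deposited p-value comes from a Weibull fit to the Z scores of a library, and the deposited q-value is its correction for false discovery. Depth in reads is unknown, and contacts absent from a library have no value. Probe correction and probe removal can change or remove the values of thinly read fragments, such as those in Tchh. The direction of such a change was not tested. The mean Z scores of the shared contacts of fragment 1114 were 2.17 and 2.44 in keratinocytes and 3.67 and 0.311 in thymocytes.

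Groups came from the sample titles. Means were taken over contacts listed in all 4 libraries, and compared by two-sided exact permutation tests over libraries. Single contacts were tested with limma 3.58.1 (R 4.3.3; lmFit, eBayes with trend, Benjamini-Hochberg over 23395 contacts). On simulated data with 200 of 23395 contacts shifted, limma recovered 0 at a shift of 4 in Z score, 98 at 8 and 177 at 16. Other steps used Python 3.11.15 with scipy 1.17.1. Gene fragments lie within 5 kb of the GENCODE gene body, and enhancer fragments within 10 kb of the study's enhancers, with TADs from its keratinocyte borders. Of the 28 window probes, 27 matched mm9 exactly in their genomic part of 30 bases.

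The members and gene lists were chosen with earlier results of these data known. Contacts were named by rule: those of the 3 genes' fragments, all called contacts with E9, E10 and E11, the 5 highest of each cell type and the 5 largest gaps in each direction at 20 kb or more, all common calls, and the 3 genes of most alike profile with at least 20 shared bins. Fragments 1097, 1099, 1104, 1116, 1120 and 1122 in the E9 profile, and fragments 1013 and 1016 of E9, were chosen after their values were seen. Alternatives were other scales, summaries, thresholds, distances and memberships, a block on the replicate number, and omission of each library in turn.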

Additional observations from a re-analysis of the deposited data

How the results depend on the processing

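The E9, E10 and E11 differences and the difference of contacts within the window kept their sign under every alternative that was run, and no alternative could take a p under 0.333. Without each library in turn, and over the contacts that the others list, the difference ranged from 0.78 to 1.93 for E9, -0.72 to -0.34 for E10, -0.95 to -0.67 for E11, -0.58 to -0.33 within the window, -0.19 to -0.08 for all window contacts, -0.22 to -0.08 for Rptn, -0.20 to 0.02 for Tchh and 0.10 to 0.28 for Tchhl1. The lowest E9 value was that without keratinocyte library 1. The Tchh difference became 0.021 with medians and 0.015 without thymocyte library 2. With only the fragments that overlap the gene body, it was -0.53 over 107 contacts, against -0.08 over 168 for Rptn. For Tchh this value came from the 24 contacts of fragment 1115. The Tchhl1 difference became -0.046 on log2 observed over expected frequency. The cause of these changes was not tested.

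At a q-value under 0.01 the calls fell to 39 in keratinocytes, 10 keratinocyte-specific and 3 common. Without each library in turn, the counts ranged from 66 to 506 in keratinocytes, from 73 to 550 in thymocytes, from 24 to 176 keratinocyte-specific, from 37 to 318 thymocyte-specific and from 10 to 20 common. The counts of a cell type's calls rose where 1 of its own libraries was left out, since 1 call then suffices, and were 66 and 73 where a library of the other cell type was. The limma count was 0 in each of its alternatives, leaving out each library included (0 to 0), with 85 to 322 window contacts at an unadjusted p under 0.05.

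The labels do not say whether the replicate numbers pair the libraries. Deviations of same-numbered libraries had a correlation of -0.09 over all contacts, which cannot show whether they were prepared together. With the replicate block the E9 difference was 1.35 (exact p = 0.50, the smallest possible) and limma again called 0 window contacts. Fragments that overlap Tchhl1 or E10 gave no value. Chosen after seeing the data were E9 without fragment 1016 (1.21) or fragments 1013 and 1016 (1.11), and well-listed window fragments (1.49 for E9). Contacts share fragments and are not independent.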
